A study of Mus musculus with 6 samples.

Results

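Wnt signalling in articular cartilage was described here through the genes for its secreted ligands, its receptors and its secreted antagonists. Members were chosen by a rule on gene names that uses no measured value, but with earlier results of these data known. From the deposited table it took every gene named Wnt or Fzd with a family number, Sfrp1 to Sfrp5 and Dkk1 to Dkk4. Frzb, Wif1, Lrp5, Lrp6, Kremen1, Kremen2, Ror1 and Ror2 were included as well, and pseudogenes were left out. The rule found 42 of 33971 genes: 16 ligands, 10 Frizzled receptors, 4 co-receptors, 2 Kremen receptors for Dickkopf proteins and 10 secreted antagonists. Wnt3, Wnt7a and Wnt9b had no row that the rule matched and are not analysed here. RNA sequencing of whole articular cartilage was compared between 3 libraries from WT mice aged 2 months and 3 libraries from WT mice aged 18 months, with no treatment and no other allele named. The study asked how expression in cartilage changes during aging, and its methods describe male mice. The labels do not say whether a library came from 1 animal or from pooled animals, so p-values measure only the spread between these libraries, which may be technical.

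A Wnt protein is a secreted, lipid-carrying ligand that binds a Frizzled receptor. With the co-receptor Lrp5 or Lrp6 this halts the breakdown of beta-catenin, which then enters the nucleus and acts with TCF and LEF factors on target genes. With Ror1, Ror2 and other partners it acts without beta-catenin. Secreted frizzled-related proteins and Wif1 bind Wnt proteins outside the cell, and Dickkopf proteins bind Lrp5 and Lrp6, a step that Kremen receptors assist. In cartilage the pathway is known to act on chondrocyte differentiation and on the upkeep of the joint surface, and the antagonist gene Frzb is known as a gene of articular cartilage.

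The libraries held 48171507 to 59085179 counts. Counts of 20397 genes, those left by edgeR's filter on low counts, entered its quasi-likelihood test. A call required an adjusted p (Benjamini-Hochberg) below 0.05 together with a log2 fold change, 18-month against 2-month, beyond 1 in either direction. Levels are given as FPKM, which divides a gene's fragments by its length and by the library's total, and values are given in the order of replicates 1, 2 and 3. An exact permutation test of 3 libraries against 3 cannot go below p = 0.1. The labelled tissue was checked with 16 chondrocyte markers, which took 7.54% to 8.87% of the counts at 2 months and 0.195% to 0.846% at 18 months. All 16 were called lower, with a median log2 fold change of −6.50, and the matrilins Matn1 and Matn3 were at 0 counts in 18-month replicate 3. Neutrophil markers took 0.00174% to 0.563% of the counts at 2 months and 4.29% to 4.61% at 18 months, and erythroid markers 0.0247% to 0.659% and 2.69% to 3.56%. Osteoblast and osteocyte markers took 0.931% to 2.20% and 0.530% to 0.599%. In bulk tissue, fewer cells of a type and less RNA per cell cannot be told apart. Within the ages, 18-month replicate 1 held the highest chondrocyte share of the aged libraries, and 2-month replicate 2 stood apart with 545386 counts of the bone collagen gene Col1a1 against 10559 and 22118 in the other 2-month libraries. Xist, which is transcribed from an inactive X chromosome, had 88239 to 102417 counts at 2 months and 11 to 30 at 18 months, so age and this pattern of sex cannot be told apart in any result below.

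Of the 42 members, 33 passed the filter and were tested. In aged cartilage 27 members were called lower and 0 were called higher, while 6 were not called. Over all tested genes 36.3% were called, 14.9% higher and 21.3% lower. Among the tested members 81.8% were called lower, and their median log2 fold change was −2.11 against −0.02 over all tested genes. An adjusted p below 0.05 at any fold change was reached by 28 members, against a background of 51.3%. All 3 aged libraries lay below all 3 young libraries for 27 members and above them for 1 member, Sfrp4, against backgrounds of 34.6% lower and 33.9% higher. The 6 members without a call were the ligands Wnt1, Wnt4 and Wnt10b, the receptor Fzd5 and the antagonists Sfrp1 and Sfrp4. The count of 0 higher members came from edgeR, while at an unadjusted p below 0.05 edgeR gave 1 higher member, Sfrp4, and DESeq2 and limma with either pseudocount also called 0 higher. Without 2-month replicate 2, Wnt1 and Wnt10b were called higher and 24 members lower. Members with a mean FPKM of at least 1 numbered 27 at 2 months and 16 at 18 months.

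**Figure D1:**
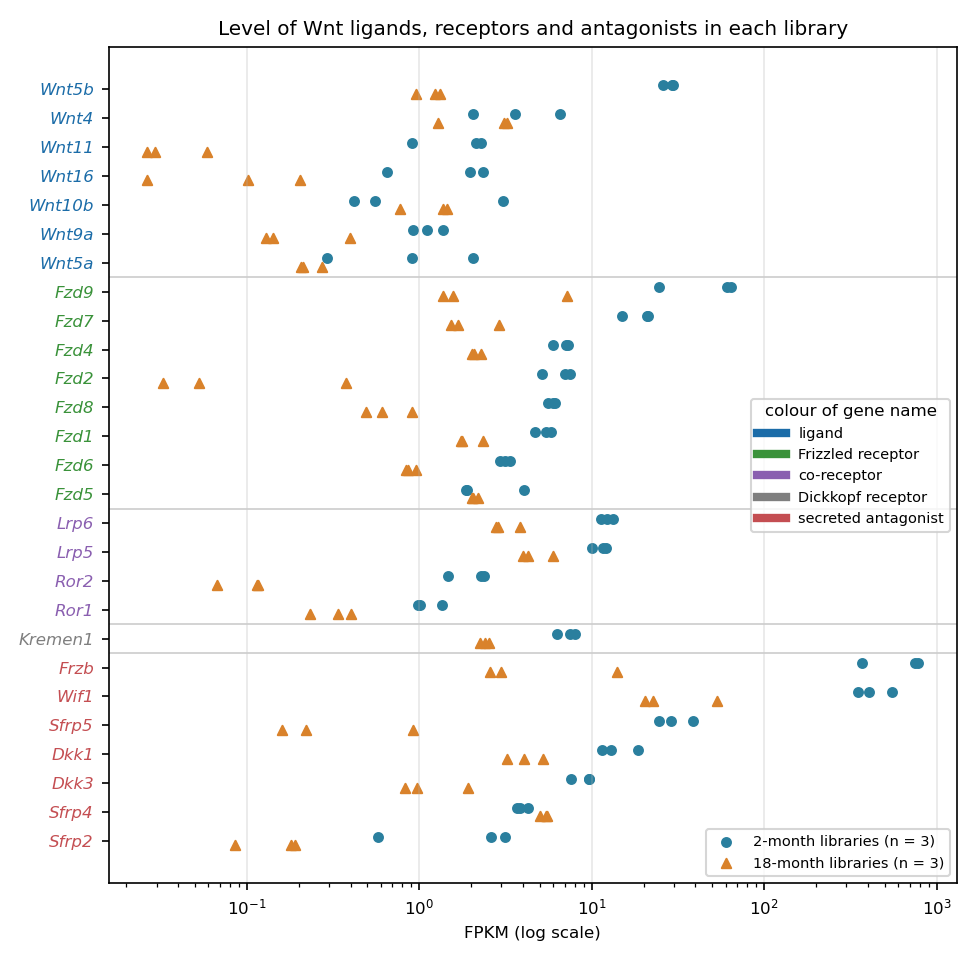
FPKM of each member with a mean of at least 1 FPKM in either age, on a log axis, with 1 point for each of the 3 libraries from 2-month mice (circles) and 3 from 18-month mice (triangles). Gene names are coloured by role. Frzb and Wif1 were between 352 and 785 FPKM in the young libraries. Sfrp4 was the member whose aged libraries all lay above the young ones in FPKM, an order that depends on the scaling.

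The ligands were led at 2 months by Wnt5b (ENSMUSG00000030170), which is known mainly for signalling without beta-catenin and acts on chondrocyte differentiation in the growth plate. On GRCm38 it spans chromosome 6, 119432531 to 119544347, minus strand. Its FPKM was 29.6, 26.0 and 29.2 at 2 months and 1.32, 0.959 and 1.23 at 18 months. The replicates of each age were close together and far from those of the other age. The log2 fold change was −4.68 ± 0.18 (SE, n = 3 per age, edgeR adjusted p = 0.000706), the ligand with the lowest adjusted p. Over 2963 bases Wnt5b overlaps Fbxl14, a ubiquitin ligase gene on the other strand, which rose in aged cartilage (log2 fold change 2.21, edgeR adjusted p = 0.00127). This overlap is of whole gene spans, introns included, and shared exons were not looked for. Whether the counting used strand is not given in the sources used here, so any reads in shared exons cannot be assigned. Of the 3 promoters that RefSeq gives for Wnt5b, the one with a TCF/LEF match is shown because Wnt5b carried most of the ligand level in young cartilage. It is read 5′ to 3′ on the gene's strand at chr6:119449337-119449636 (GRCm38.p6), and capitals mark the match CTTTGAT.
Wnt5b: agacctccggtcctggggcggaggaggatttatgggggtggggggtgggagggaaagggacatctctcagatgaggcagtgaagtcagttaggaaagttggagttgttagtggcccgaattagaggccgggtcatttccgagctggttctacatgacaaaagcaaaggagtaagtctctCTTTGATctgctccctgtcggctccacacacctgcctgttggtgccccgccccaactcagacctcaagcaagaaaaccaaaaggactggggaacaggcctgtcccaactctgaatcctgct

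Wnt4 (ENSMUSG00000036856), a ligand known from kidney, gonad and skeletal development, spans chromosome 4, 137277489 to 137299726, plus strand. Its FPKM was 2.06, 6.59 and 3.62 in the young libraries and 1.28, 3.24 and 3.12 in the aged ones. The ages overlapped, with the highest value in 2-month replicate 2 and the lowest in 18-month replicate 1. The log2 fold change of −0.73 ± 0.52 (SE) did not pass the test (edgeR adjusted p = 0.279). Its mean was the highest of the ligands at 18 months, through replicates 2 and 3, while in replicate 1 it was below Wnt10b (1.38 FPKM) and Wnt5b (1.32 FPKM). The promoter of Wnt4 is shown for that mean, at chr4:137277385-137277684 on the plus strand. It held none of the letters searched, so no base is in capitals.
Wnt4: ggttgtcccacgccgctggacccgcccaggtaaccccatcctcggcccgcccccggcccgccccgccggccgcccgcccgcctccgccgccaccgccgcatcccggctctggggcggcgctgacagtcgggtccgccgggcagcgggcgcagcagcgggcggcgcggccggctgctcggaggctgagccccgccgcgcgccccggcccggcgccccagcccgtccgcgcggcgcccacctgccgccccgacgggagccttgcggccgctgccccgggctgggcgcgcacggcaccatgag

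The ligand pool differed in composition between the ages. Wnt5b made up 80.2%, 60.7% and 71.1% of the summed ligand FPKM at 2 months and 22.8%, 14.9% and 19.8% at 18 months. Wnt4 made up 5.59%, 15.4% and 8.81% at 2 months and 22.2%, 50.4% and 50.2% at 18 months. Neither share overlapped between the ages. The sum itself was 40.3 ± 3.05 FPKM at 2 months and 6.14 ± 0.323 FPKM at 18 months (mean ± SD, n = 3), which is 6.56-fold lower in aged cartilage.

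Wnt11, a ligand of convergent extension movements in the embryo, had 0.907, 2.13 and 2.27 FPKM at 2 months and 0.0590, 0.0294 and 0.0264 FPKM at 18 months. Every aged library was far below the lowest young one. Its log2 fold change of −5.55 ± 0.56 (SE, edgeR adjusted p = 0.0016) was the lowest among ligands. Wnt16, a ligand active in bone and in injured joints, had 1.98, 0.652 and 2.36 FPKM in young and 0.204, 0.0265 and 0.101 FPKM in aged cartilage. The lowest young library, replicate 2, was still above the highest aged one, replicate 1. Wnt16 fell by 3.99 ± 0.88 on the log2 scale (SE, edgeR adjusted p = 0.0129), with −4.72 without 18-month replicate 1 and an adjusted p of 0.0543 without 18-month replicate 3, which ended the call. Wnt9a, which acts in joint formation, had 0.925, 1.11 and 1.36 FPKM at 2 months and 0.399, 0.129 and 0.143 FPKM at 18 months. All aged values lay below the young ones, with 18-month replicate 1 closest to them. Wnt9a had a log2 fold change of −2.41 ± 0.52 (SE, edgeR adjusted p = 0.0116), with −3.08 without 18-month replicate 1.

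Wnt5a, the paralog of Wnt5b, had 0.292, 2.06 and 0.909 FPKM in young and 0.274, 0.207 and 0.213 FPKM in aged cartilage. The young libraries spanned a wide range, and the lowest of them, replicate 1, was just above the highest aged value. The log2 fold change of −2.26 ± 0.67 (SE, edgeR adjusted p = 0.0336) was −1.48 without 2-month replicate 2 and lost its call without 2-month replicate 3 or any single 18-month library, with adjusted p from 0.0736 to 0.105. Wnt10b, a ligand that favours bone formation over fat, had 0.418, 3.07 and 0.556 FPKM at 2 months and 1.38, 1.44 and 0.774 FPKM at 18 months. The ages overlapped because 2-month replicate 2 was above all other libraries while the other 2-month libraries were below all of them. Its log2 fold change of −0.20 (edgeR adjusted p = 0.847) turned to 1.18 without 2-month replicate 2 (adjusted p = 0.0384).

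The other ligands were below 1 FPKM in every library. Wnt2b (log2 fold change −1.40, edgeR adjusted p = 0.0344) and Wnt7b (−2.11, adjusted p = 0.0477) were called lower at means of 0.516 and 0.141 FPKM in young cartilage. Each call was lost in 5 of 6 omissions of a single library, and the log2 fold change of Wnt7b was −2.93 without 18-month replicate 1. Wnt1, known for its part in bone formation, had 4, 26 and 0 counts at 2 months and 58, 25 and 24 at 18 months. Its ages overlapped through 2-month replicate 2, and its log2 fold change of 1.62 did not pass the test (edgeR adjusted p = 0.305), while without that library it was 3.74 (adjusted p = 0.0375). The 6 ligands that were not tested, Wnt2, Wnt3a, Wnt6, Wnt8a, Wnt8b and Wnt10a, had at most 15 counts in any library. Of these Wnt8a had 4, 8 and 12 counts at 2 months and 0 in each aged library, where a count of 0 allows up to 3.

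Some ligand genes are neighbours on the chromosome, with no gene of the table between them. Wnt10b and Wnt1 lie 11.7 kb apart on chromosome 15, Wnt3a and Wnt9a 16.2 kb apart on chromosome 11, and Wnt6 and Wnt10a 6.2 kb apart on chromosome 1. In the first pair both genes were highest among young libraries in 2-month replicate 2 and neither was called. In the second pair Wnt9a was called lower while Wnt3a had no count at 2 months and 14, 4 and 0 counts at 18 months. The third pair was near 0 throughout.

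The Frizzled receptors, which bind the Wnt protein at the cell surface, were tested in 10 of 10 cases. Of these receptors 9 were called lower (90.0%, against 21.3% of all tested genes), and the median log2 fold change of the 10 was −2.57. Fzd9 (ENSMUSG00000049551, chromosome 5 from 135248938 to 135251230, minus strand), known for its role in osteoblasts, was the most abundant of them in young cartilage. It had 64.6, 24.5 and 61.1 FPKM at 2 months and 7.23, 1.57 and 1.37 FPKM at 18 months. The young library nearest to the aged ones was replicate 2, and the aged library nearest to the young ones was replicate 1. Fzd9 fell by 4.0 ± 0.85 on the log2 scale (SE, edgeR adjusted p = 0.0114), with −5.16 without 18-month replicate 1. Fzd7 had 21.3, 15.0 and 20.9 FPKM in young and 2.90, 1.67 and 1.53 FPKM in aged cartilage. Its libraries were ordered as those of Fzd9 in both ages, and it fell by 3.32 ± 0.32 on the log2 scale (SE, edgeR adjusted p = 0.00145).

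Fzd2 had 7.04, 5.12 and 7.50 FPKM at 2 months and 0.378, 0.0326 and 0.0529 FPKM at 18 months. As ratios, the aged libraries differed among themselves by more than those of any other Frizzled gene above 1 FPKM, on 94, 8 and 13 counts. All were still far below the young ones. For Fzd2 the log2 fold change of −5.48 ± 1.01 (SE, edgeR adjusted p = 0.00726) was the lowest of the receptors, at −7.23 without 18-month replicate 1. Fzd8 had 5.55, 6.16 and 5.99 FPKM in young and 0.907, 0.489 and 0.606 FPKM in aged cartilage, Fzd4, also the receptor of the ligand norrin, had 5.95, 7.09 and 7.29 and 2.01, 2.08 and 2.28, and Fzd1 had 5.45, 4.70 and 5.80 and 1.76, 2.33 and 1.75. For these receptors the young libraries lay close together and did not reach down to the aged ones. Fzd8 fell by 3.23 ± 0.25, Fzd4 by 1.75 ± 0.13 and Fzd1 by 1.53 ± 0.20 on the log2 scale (SE, edgeR adjusted p = 0.000996, 0.000919 and 0.00267). Fzd6, known for its role in planar polarity, had 3.35, 2.94 and 3.14 FPKM at 2 months and 0.860, 0.960 and 0.834 FPKM at 18 months. Each aged library held less than the lowest young one, and the gene fell by 1.91 ± 0.17 (SE, log2 scale, edgeR adjusted p = 0.00122).

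Fzd5 was the exception among Frizzled genes. It had 1.87, 4.04 and 1.89 FPKM in young and 2.19, 2.04 and 2.03 FPKM in aged cartilage. The aged values lay between those of 2-month replicate 2 and the other 2-month libraries. Its log2 fold change of −0.37 ± 0.29 (SE) did not pass the test (edgeR adjusted p = 0.321) and was 0.05 without 2-month replicate 2. Fzd3, another polarity receptor, and Fzd10 were below 1 FPKM throughout, with log2 fold changes of −1.85 (edgeR adjusted p = 0.00339) and −3.42 (adjusted p = 0.0493). The call of Fzd10 rested on 25, 0 and 7 counts at 18 months against 68, 123 and 90 at 2 months and was lost in 4 of 6 omissions of a single library, while its log2 fold change reached −4.89 without 18-month replicate 1. The order of levels within the family changed between the ages. At 2 months the means ran from Fzd9 (50.1 ± 22.2 FPKM, SD) and Fzd7 (19.1 ± 3.54) to Fzd4, Fzd2, Fzd8 and Fzd1, whose libraries overlapped between 4.70 and 7.50 FPKM. At 18 months Fzd9, Fzd4, Fzd5, Fzd7 and Fzd1 had means of 3.39, 2.13, 2.09, 2.03 and 1.95 FPKM and did not differ beyond their spread.

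The co-receptors were called lower in 4 of 4 cases, against 21.3% of all tested genes. Lrp6 and Lrp5, low-density lipoprotein receptor family members that carry the beta-catenin branch, were about equally abundant in young cartilage. Lrp6 had 12.3, 11.3 and 13.3 FPKM at 2 months and 3.86, 2.79 and 2.85 FPKM at 18 months, and Lrp5 had 12.1, 10.1 and 11.6 and 5.95, 4.30 and 3.99. Neither gene overlapped between the ages, and 18-month replicate 1 was the highest aged library for both. Lrp6 fell by 2.05 ± 0.17 and Lrp5 by 1.34 ± 0.19 on the log2 scale (SE, edgeR adjusted p = 0.00117 and 0.00336). The ratio of Lrp6 to Lrp5 FPKM was 1.02, 1.12 and 1.15 in young and 0.649, 0.648 and 0.715 in aged libraries. The order of the pair thus turned, with Lrp6 above Lrp5 in each young library and below it in each aged library.

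Ror2 and Ror1, receptor tyrosine kinases of the branch without beta-catenin, were less abundant. Ror2 had 1.47, 2.36 and 2.29 FPKM at 2 months and 0.115, 0.116 and 0.0671 FPKM at 18 months, and Ror1 had 1.36, 1.01 and 0.991 and 0.232, 0.403 and 0.338. Every aged value of both genes was below the young ones, and Ror2 went from the higher to the lower of the pair in every library. Ror2 fell by 4.41 ± 0.34 and Ror1 by 1.86 ± 0.32 on the log2 scale (SE, edgeR adjusted p = 0.00101 and 0.00572). The difference between the falls of these paralogs was not tested. Kremen1, a transmembrane partner of Dickkopf proteins, had 6.31, 8.04 and 7.53 FPKM in young and 2.54, 2.25 and 2.41 FPKM in aged cartilage. It did not overlap between the ages and fell by 1.68 ± 0.11 (SE, log2 scale, edgeR adjusted p = 0.000819). Its paralog Kremen2 had at most 5 counts in any library and was not tested.

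**Figure D2:**
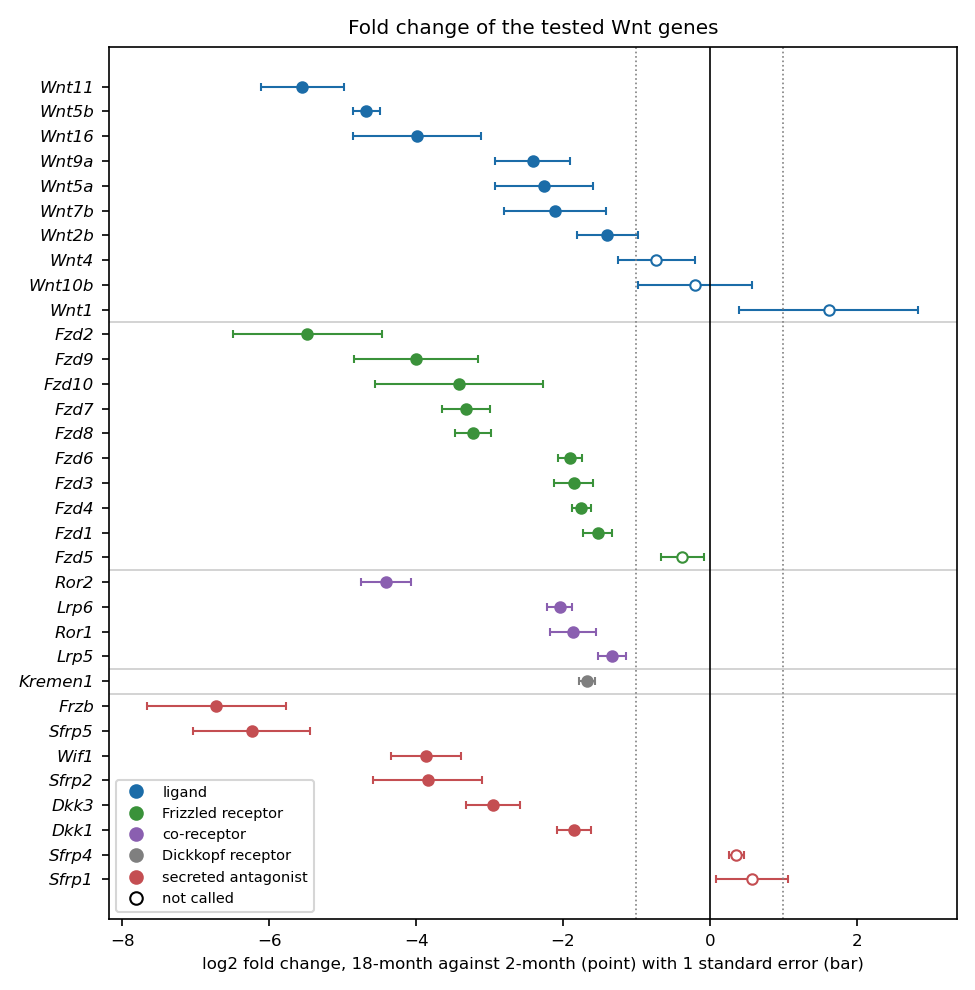
Log2 fold change of the 33 tested members, 18-month against 2-month, from edgeR, with bars of 1 standard error. Filled points were called, open points were not, dotted lines mark log2 fold changes of −1 and 1, and colours mark the role. The points run from −6.72 (Frzb) to 1.62 (Wnt1), and the called points are all below −1.

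The secreted antagonists held the most abundant members. Frzb (ENSMUSG00000027004), also known as secreted frizzled-related protein 3, spans chromosome 2, 80411970 to 80447625, minus strand. It had 785, 368 and 746 FPKM at 2 months and 14.0, 2.99 and 2.59 FPKM at 18 months. No aged library came near the young ones, though 18-month replicate 1 was well above the other aged libraries and 2-month replicate 2 below the other young ones. Frzb had the largest fall of all members, with a log2 fold change of −6.72 ± 0.94 (SE, edgeR adjusted p = 0.00327) that reached −7.90 without 18-month replicate 1. Wif1 (ENSMUSG00000020218), which binds Wnt proteins through its WIF domain, spans chromosome 10, 121033960 to 121100650, plus strand. It had 554, 352 and 404 FPKM in young and 53.1, 22.6 and 20.3 FPKM in aged cartilage. The ages were far apart, and the aged libraries of Wif1 were the highest of any member at that age. Wif1 fell by 3.87 ± 0.47 on the log2 scale (SE, edgeR adjusted p = 0.0023).

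Frzb and Wif1 were close in level at 2 months and not at 18 months. The ratio of Frzb to Wif1 FPKM was 1.42, 1.05 and 1.85 in young libraries and 0.263, 0.132 and 0.128 in aged libraries. Both promoters are shown because these genes carried most of the antagonist level. That of Frzb is at chr2:80447347-80447646 on the minus strand and held none of the letters searched, and that of Wif1 is at chr10:121033754-121034053 on the plus strand, with a TATAAA match on the reverse strand in capitals.
Frzb: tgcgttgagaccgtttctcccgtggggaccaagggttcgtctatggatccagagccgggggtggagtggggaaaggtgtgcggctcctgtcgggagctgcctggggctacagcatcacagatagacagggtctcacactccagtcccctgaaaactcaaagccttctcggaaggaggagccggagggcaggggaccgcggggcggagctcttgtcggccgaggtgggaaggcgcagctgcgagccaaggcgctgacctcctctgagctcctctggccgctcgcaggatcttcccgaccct
Wif1: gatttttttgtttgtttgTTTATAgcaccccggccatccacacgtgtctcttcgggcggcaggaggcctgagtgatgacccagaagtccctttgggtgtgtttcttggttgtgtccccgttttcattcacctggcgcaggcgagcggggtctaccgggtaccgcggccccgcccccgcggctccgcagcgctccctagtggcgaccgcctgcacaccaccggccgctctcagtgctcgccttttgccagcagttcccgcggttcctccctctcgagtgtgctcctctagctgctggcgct

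Dkk1 (ENSMUSG00000024868), a Dickkopf antagonist of Lrp5 and Lrp6 that is itself a known target of the pathway, spans chromosome 19, 30545863 to 30549665, minus strand. It had 12.9, 18.7 and 11.5 FPKM at 2 months and 5.22, 4.06 and 3.22 FPKM at 18 months. The ages did not overlap, and the young maximum was replicate 2. Dkk1 fell by 1.85 ± 0.23 on the log2 scale (SE, edgeR adjusted p = 0.00245). Its promoter, at chr19:30549447-30549746 on the minus strand, is shown as the only member promoter with all 3 motifs searched. Capitals mark, in order, a TCF/LEF match (CTTTGAA), a SOX match on the reverse strand (AACAAAG, printed as its reverse complement) and a TATA match (TATAAA).
Dkk1: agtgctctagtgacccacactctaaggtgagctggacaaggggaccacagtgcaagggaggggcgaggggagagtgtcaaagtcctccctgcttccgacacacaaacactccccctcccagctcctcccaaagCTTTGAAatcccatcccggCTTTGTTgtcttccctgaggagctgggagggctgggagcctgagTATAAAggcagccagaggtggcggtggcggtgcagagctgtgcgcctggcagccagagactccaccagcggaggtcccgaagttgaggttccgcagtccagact

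Dkk3, a Dickkopf family member with little known action on Lrp6, had 9.65, 7.62 and 9.71 FPKM in young and 1.93, 0.974 and 0.830 FPKM in aged cartilage. All aged values lay well below the young ones, and the gene fell by 2.95 ± 0.37 (SE, log2 scale, edgeR adjusted p = 0.00237). Sfrp5, a secreted frizzled-related protein, had 29.0, 24.6 and 38.7 FPKM at 2 months and 0.915, 0.222 and 0.161 FPKM at 18 months. It was below 1 FPKM in every aged library, and its log2 fold change of −6.24 ± 0.79 (SE, edgeR adjusted p = 0.0025) was −7.36 without 18-month replicate 1. Sfrp2 had 0.578, 2.61 and 3.16 FPKM in young and 0.191, 0.0855 and 0.180 FPKM in aged cartilage. The low young library was replicate 1, which was still above all aged libraries. Sfrp2 fell by 3.84 ± 0.74 (SE, log2 scale, edgeR adjusted p = 0.00833).

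Sfrp4 (ENSMUSG00000021319, chromosome 13 from 19623104 to 19632994, plus strand), a secreted frizzled-related protein known for its role in cortical bone, stood apart from the other antagonists. It had 3.71, 4.25 and 3.86 FPKM at 2 months and 5.51, 5.46 and 5.01 FPKM at 18 months. All aged libraries were above all young ones in FPKM, by a small margin. Summed over all genes, FPKM was 269586.6 to 293107.9 in young and 360503.1 to 387501.6 in aged libraries. The margin depends on this scaling, and with each library brought to the same FPKM sum (TPM) the ages of Sfrp4 overlap. The log2 fold change of 0.36 ± 0.10 (SE) had an edgeR adjusted p of 0.0306 but stayed within the limit of 1, so Sfrp4 was not called. Sfrp1 had 0.520, 0.945 and 0.361 FPKM in young and 0.496, 1.22 and 1.08 FPKM in aged cartilage, with overlapping ages. A log2 fold change of 0.57 ± 0.49 (SE) did not pass the test (edgeR adjusted p = 0.362). Dkk2 and Dkk4 were not tested, with at most 65 and 6 counts, both in 2-month replicate 2.

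Summed over its members, the antagonist level was 1395, 779 and 1218 FPKM at 2 months and 81.4, 37.7 and 33.4 FPKM at 18 months, which is 22.3-fold lower in the mean. The corresponding folds were 7.45 for Frizzled receptors, 6.56 for ligands and 3.21 for co-receptors. These sums are a description without a test. The ratio of summed antagonist to summed ligand FPKM was 37.8, 18.2 and 29.7 in young libraries and 14.1, 5.86 and 5.39 in aged ones. All aged ratios lay below the young ones. Without Frzb and Wif1 the ratio was 1.53, 1.38 and 1.64 at 2 months and 2.47, 1.87 and 1.69 at 18 months, and all aged ratios lay above the young ones. The nearest libraries were close, at 1.64 in 2-month replicate 3 and 1.69 in 18-month replicate 3. The fall of the full ratio therefore rested on Frzb and Wif1, while the rise without them was by a thin margin. Frzb made up 47.3% to 61.3% of the antagonist sum in young libraries and 7.75% to 17.2% in aged ones, where Wif1 made up 60.1% to 65.3%, Sfrp4 6.77% to 15.0% and Dkk1 6.42% to 10.8%.

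**Figure D3:**
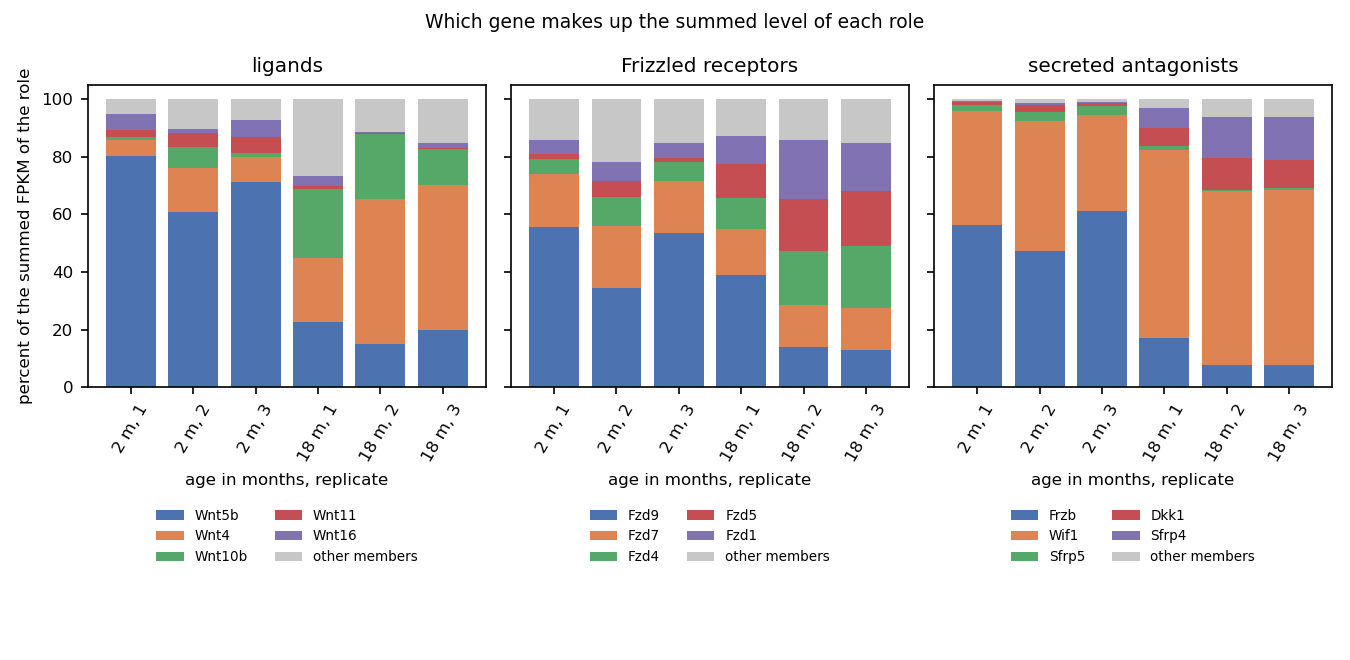
Percent of the summed FPKM of ligands, Frizzled receptors and secreted antagonists that came from each gene, with 1 bar for each library (2 m, 2-month; 18 m, 18-month; number, replicate). Wnt5b fills 60.7% to 80.2% of the ligand bar in young libraries and 14.9% to 22.8% in aged ones, and Frzb falls from 47.3% or more of the antagonist bar to 17.2% or less.

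The falls of the members stood beside those of the chondrocyte markers. Of the members called lower, 8 were over 2 times as high, as a share of all counts, in 18-month replicate 1, the aged library with the highest chondrocyte share, as in both other aged libraries. These were Frzb, Wif1, Sfrp5, Fzd2, Fzd9, Fzd10, Wnt7b and Wnt9a. Wnt1, which was not called, met the same limit. The share of all tested genes that met it was not counted, so this cannot be read as a trait of the members. Ratios to chondrocyte genes within each library were then taken for the 27 members with a mean of at least 1 FPKM in either age, a comparison chosen after the values had been seen. Per FPKM of Col2a1, the collagen of hyaline cartilage, 24 members were higher in all aged than in all young libraries, and 3 overlapped, namely Frzb, Sfrp5 and Fzd2. Per FPKM of Acan, the gene of the proteoglycan aggrecan, 21 were higher and 6 overlapped, the same 3 among them. Per FPKM of Sox9, the chondrocyte transcription factor, 20 were higher, 4 overlapped, and Frzb, Sfrp5 and Fzd2 were lower. Col2a1, Acan and Sox9 themselves had log2 fold changes of −7.20, −5.91 and −5.16, against a median of −0.02 over all tested genes. A gene that did not change would thus be higher in these ratios. The same shares over all genes were not counted, so these counts cannot be read as a trait of the members. Per 1000 FPKM of Col2a1, Frzb had 556, 110 and 405 FPKM at 2 months and 658, 234 and 201 at 18 months, while Wif1 had 393, 105 and 219 and then 2503, 1768 and 1578. Frzb thus overlapped between the ages relative to Col2a1, and Wif1 was higher in every aged library. The part of the chondrocyte share in these falls was not tested.

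**Figure D4:**
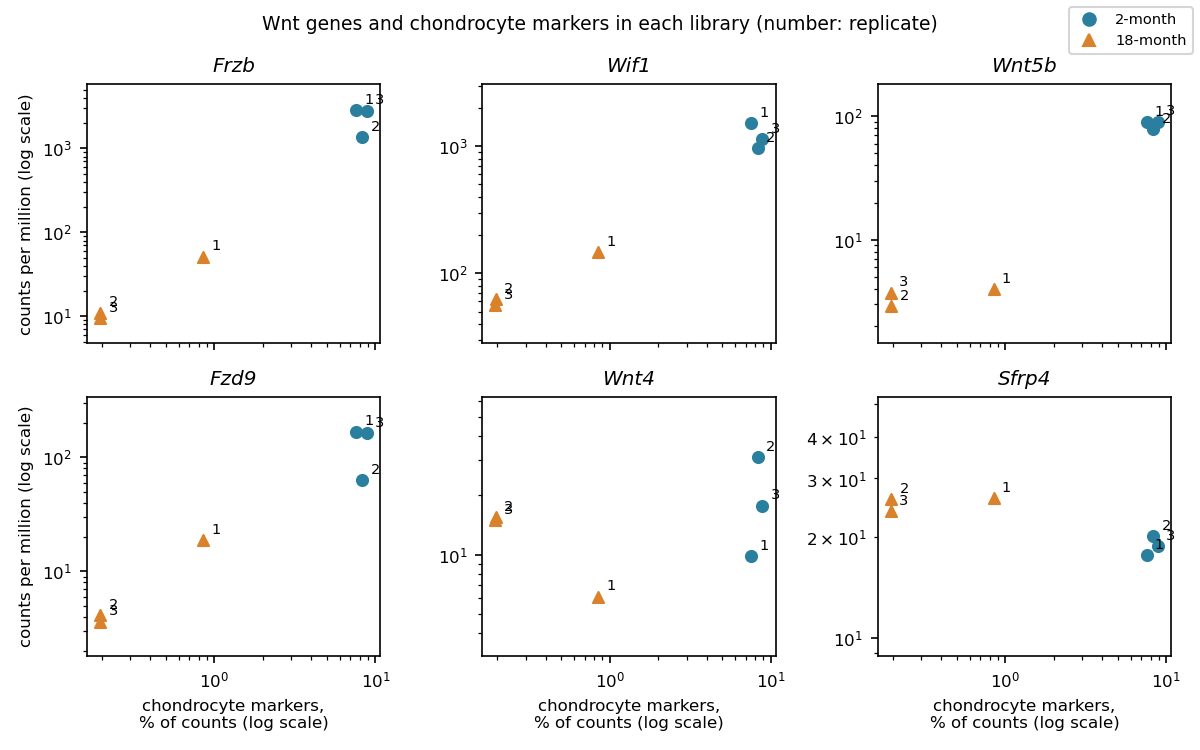
Counts of 6 Wnt genes, scaled to the library total (CPM), against the percent of counts taken by 16 chondrocyte markers, both on log axes, with 1 point per library and the replicate number beside it. Frzb, Wif1 and Fzd9 are higher in 18-month replicate 1, which holds a chondrocyte share of 0.846%, by over 2 times than in 18-month replicates 2 and 3 at 0.196% and 0.195%, while Wnt5b and Sfrp4 differ less between these libraries and Wnt4 is lower in replicate 1.

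Sequences just before the gene starts were examined because members moved together, and no link to the fold changes was tested. RefSeq promoters of 300 bases, from 250 before to 50 after a start (GRCm38.p6), matched 27 of the 42 members with 30 promoters. Their median GC content was 66.5%, against 52.7% over all 32851 promoters, and their median ratio of observed to expected CpG was 0.75 against 0.38. Motifs were searched on both strands: CTTTGAA or CTTTGAT for TCF/LEF factors, AACAATG or AACAAAG for SOX factors, and TATAAA. A TCF/LEF match was in 8.65% of all promoters and in 3 of the 30 member promoters, of Wnt5b, Wnt11 and Dkk1. A SOX match was in 9.36% of all promoters and in 2 of the 30, of Fzd7 and Dkk1. For TATAAA this was 13.6% and 5 of the 30, of Fzd1, Wnt11, Wif1, Dkk1 and Dkk2. These counts are near the shares of all promoters. A match is only a run of letters. No stretch of 150 bases from a member's transcripts in GENCODE M21 occurred in transcripts of another gene. Kremen2, Wnt5a, Wnt6, Wnt7b and Sfrp2 overlap antisense genes. Fzd3, Fzd5, Fzd6, Ror1 and Kremen1 overlap other genes on the opposite strand, Fzd5 over 1512 bases. On the same strand Fzd3 overlaps Gm27263 over 76 bases, Ror1 overlaps Gm12701 over 1221 and Wnt2b overlaps Gm43846 over 932. All these overlaps are of whole gene spans, introns included. Reads in stretches shared with the opposite strand cannot be assigned without knowing the strand setting, which would not separate those on the same strand.

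The other genes of the pathway were described from 7 lists with 76 genes, of which 74 were in the table and 71 were tested. Of these 31 were called lower and 7 higher, with a median log2 fold change of −0.86, against the backgrounds of 21.3% and 14.9%. The 7 higher calls became 12 without 2-month replicate 2, 4 without 2-month replicate 3, 4 without 18-month replicate 1 or 2 and 3 without 18-month replicate 3. Cer1 and Sp5 are not analysed here. The Wnt secretion genes were not called. Wls, the carrier of Wnt proteins to the cell surface, had 11.7, 12.9 and 11.2 FPKM at 2 months and 9.01, 9.12 and 8.37 FPKM at 18 months, and Porcn, which attaches their lipid, had 1.98, 3.44 and 2.47 and 1.50, 2.13 and 2.50. Wls was below the young libraries in each aged one by a small step (log2 fold change −0.51, edgeR adjusted p = 0.00629), and Porcn overlapped.

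Among R-spondins, which raise Wnt signalling, and their receptors, 5 of 9 tested genes were called, each of them lower. This was 55.6%, against 21.3% of all tested genes. Lgr6 had 34.9, 20.8 and 40.7 FPKM in young and 5.39, 1.07 and 1.20 FPKM in aged cartilage, and Lgr4 had 10.2, 13.1 and 10.6 and 2.10, 1.93 and 1.57. Neither receptor overlapped between the ages. Lgr6 fell by 3.77 ± 0.77 and Lgr4 by 2.67 ± 0.14 on the log2 scale (SE, edgeR adjusted p = 0.0101 and 0.000706), Lgr6 with −4.89 without 18-month replicate 1. Rspo4 had 495, 3118 and 1775 counts at 2 months and 7, 0 and 0 counts at 18 months (edgeR adjusted p = 0.0032). The aged libraries were at or near 0 for this R-spondin. The other called genes were Rspo3 (log2 fold change −2.67) and Znrf3 (−1.89), a ligase that removes Frizzled receptors. Of 11 other secreted or bound modulators, 6 were called lower and 2 higher. These shares of 54.55% and 18.18% stood against 21.3% and 14.9% of all tested genes. Notum, which removes the lipid from Wnt proteins, had 10.5, 13.2 and 14.5 FPKM at 2 months and 0.637, 0.578 and 0.970 FPKM at 18 months, and Reck, a membrane protein that acts with Wnt7 ligands, had 58.7, 27.9 and 47.9 and 7.70, 4.14 and 4.32. Both were lower in every aged library, with log2 fold changes of −4.20 ± 0.28 and −3.16 ± 0.41 (SE, edgeR adjusted p = 0.00083 and 0.00269). Sost, the Lrp5 and Lrp6 antagonist made by osteocytes, had 72.9, 60.3 and 70.9 FPKM in young and 69.3, 32.3 and 31.9 FPKM in aged cartilage. The ages overlapped through 18-month replicate 1, and the log2 fold change of −0.71 ± 0.33 (SE) did not pass the test (edgeR adjusted p = 0.121), while it was −1.14 and past the test without that library (adjusted p = 0.00842). The modulators called higher were Draxin and Dkkl1, with 18-month means of 1.17 and 1.08 FPKM. Among young libraries both had counts in replicate 2 alone, 33 for Draxin and 10 for Dkkl1. Draxin kept its call only without that library when 1 library was left out (adjusted p 0.0562 to 0.103 without each of the others), and Dkkl1 lost it without 2-month replicate 3 or any single 18-month library (0.0507 to 0.0788, all from edgeR).

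Of 10 tested genes for other receptors and planar polarity, 4 were called lower and 2, Celsr1 and Celsr3, higher. These counts stood against backgrounds of 21.3% lower and 14.9% higher over all tested genes. Celsr3 kept its call without any 1 library, while Celsr1 lost it without 2-month replicate 1 or any single 18-month library (edgeR adjusted p 0.0521 to 0.0527). The receptor Ryk had 36.8, 27.5 and 32.1 FPKM in young and 6.36, 5.02 and 5.31 FPKM in aged cartilage and the polarity gene Celsr2 had 2.73, 2.35 and 2.61 and 0.111, 0.0517 and 0.0533. Neither overlapped between the ages. Ryk fell by 2.62 ± 0.18 and Celsr2 by 5.22 ± 0.36 on the log2 scale (SE, edgeR adjusted p = 0.000849 and 0.000843). Prickle1 fell by 1.95 (adjusted p = 0.000749), and Lrp4, a sclerostin partner, was not called at −0.85 (adjusted p = 0.0809), though it was at −1.09 without 2-month replicate 1 (adjusted p = 0.0408, all from edgeR).

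Of 13 cytoplasmic transducers tested, 2 were called, both lower, which was 15.4% against 21.3% of all tested genes. An adjusted p below 0.05 at any fold change was reached by 7, against the background of 51.3% (edgeR). The median log2 fold change of the 13 was −0.34. Ctnnb1, the gene of beta-catenin, had 130, 168 and 137 FPKM at 2 months and 80.5, 74.2 and 70.5 FPKM at 18 months. The ages did not overlap, and the log2 fold change of −1.02 ± 0.14 (SE, edgeR adjusted p = 0.00295) lay just past the limit and fell just inside it, at −0.98 to −0.93, in 8 of 15 alternatives. The kinase genes Gsk3a and Csnk1a1, of the complex that marks beta-catenin for breakdown, had log2 fold changes of 0.31 and −0.16 and were not called (edgeR adjusted p = 0.052 and 0.299). The other called gene was Apc2.

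Of 14 nuclear factors, 9 were called lower and 1 higher, or 64.3% and 7.14% against 21.3% and 14.9% of all tested genes. Lef1, a factor that carries beta-catenin to its targets, had 2.50, 2.91 and 2.66 FPKM in young and 0.369, 0.268 and 0.234 FPKM in aged cartilage. Ctnnbip1, which blocks beta-catenin from TCF factors, had 36.6, 16.1 and 26.2 and 3.81, 4.64 and 4.21, and the corepressor gene Ctbp1 had 16.7, 23.6 and 16.9 and 40.7, 44.4 and 43.1. The first pair was lower and Ctbp1 higher in every aged library. Lef1 fell by 3.29 ± 0.20 and Ctnnbip1 by 2.73 ± 0.35 on the log2 scale, and Ctbp1 rose by 1.10 ± 0.14 (SE, edgeR adjusted p = 0.000749, 0.00264 and 0.00263). Pygo2, a partner of beta-catenin, was not called at 0.10 (edgeR adjusted p = 0.564).

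Of 12 known target genes tested, 5 were called lower, 2 higher and 5 were not called. The share called higher, 16.7%, was close to the 14.9% of all tested genes, and the share called lower was 41.7% against 21.3%. The feedback inhibitor Axin2, a widely used readout of the beta-catenin branch, had 2.37, 1.89 and 2.04 FPKM at 2 months and 0.606, 0.544 and 0.454 FPKM at 18 months. All aged libraries were below the young ones, and the log2 fold change was −2.05 ± 0.21 (SE, edgeR adjusted p = 0.0016). The others called lower were Bambi, Nkd1, Dact1 and Ccnd1, with log2 fold changes of −2.14, −2.97, −1.57 and −1.52. Cd44, a hyaluronan receptor also known on leukocytes, had 3.13, 18.7 and 6.48 FPKM in young and 46.2, 40.4 and 39.2 FPKM in aged cartilage, and the growth regulator Myc had 2.20, 6.76 and 3.63 and 13.4, 14.1 and 14.0. Both were above every young library in every aged one and in young cartilage highest in replicate 2. Cd44 rose by 2.12 ± 0.61 and Myc by 1.67 ± 0.37 on the log2 scale (SE, edgeR adjusted p = 0.0316 and 0.0134). Cd44 was at 3.02 without 2-month replicate 2 and lost its call without 2-month replicate 3 or any single 18-month library (adjusted p 0.0748 to 0.103), as did Myc without 2-month replicate 3 (0.0528). The summed shares of neutrophil and erythroid markers, given above, were also higher in every aged library and among young libraries highest in replicate 2. Of single markers all 8 erythroid ones and 13 of 14 neutrophil ones lay above every young library in every aged one, against 33.9% of all tested genes. Mmp9 did not, with 97772 counts in 2-month replicate 2 against 59034 to 62219 in the aged libraries. By edgeR 0 of the 14 neutrophil markers were called higher and 3 reached an unadjusted p below 0.05, while DESeq2 called 11, limma 13 and edgeR without 2-month replicate 2 also 13. With all libraries edgeR called 3 of 8 erythroid and 5 of 8 T and NK lymphocyte markers higher. It called 3 of 9 monocyte and macrophage markers and 0 of 10 B lymphocyte markers higher, against 14.9% of all tested genes. The part of these cells in the rises of Cd44 and Myc was not tested.

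**Figure D5:**
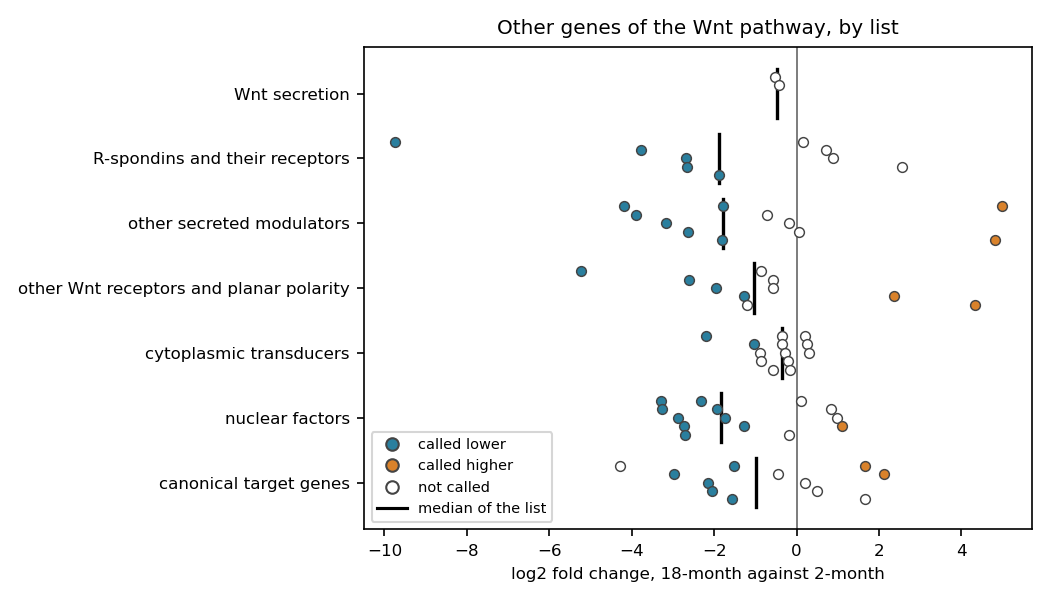
Log2 fold change, 18-month against 2-month, of the 71 tested genes of 7 lists of other Wnt pathway genes, 1 point per gene, filled where called lower or higher, with a bar at the median of each list. Of the called points 31 are on the lower side and 7 on the higher side.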

How the data were processed

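Articular cartilage of 2-month and 18-month WT mice was profiled by RNA sequencing, with 3 libraries per age. In each library every gene had raw counts, deposited as whole numbers, and an FPKM value, which the authors scaled by gene length and library total. The submitters' processing notes name cutadapt 1.9, HISAT2 2.0.4, UMI-tools, StringTie 1.3.4d, DESeq2 and edgeR, and the genome build and strand setting are not given in the sources used here. The poly(A)-selected libraries were strand-marked with dUTP and carried molecular identifiers. All 6 libraries were used, with 48171507 to 59085179 counts each, and 0 columns of values per library were left unused. Coordinates were matched to GENCODE M21 (GRCm38), where 39 of 42 members were identical.

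The test of the counts was that of edgeR 4.0.16 under R 4.3.3 (TMM, filterByExpr, quasi-likelihood test, no replicate block) and adjusted by Benjamini-Hochberg over 20397 genes. The standard error was the log2 fold change over the square root of F. Alternatives were no filter, median-of-ratios factors, total counts alone, a replicate block, DESeq2 1.42.0, limma 3.58.1 on log2(FPKM + 0.1) or log2(FPKM + 1), a mean FPKM of at least 1, sums in TPM and leaving out each library. Leaving out libraries from the role sums was added after seeing the data. The edgeR test was run on simulated data with 200 changed genes. Tables and figures used Python 3.11.15, pandas 2.3.3 and matplotlib 3.10.9.

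Members and lists were chosen with earlier results of these data known. Members with a mean FPKM of at least 1 in either age were described by library and the others by counts. Of each pathway list, the 3 most abundant genes and the largest called rise and fall at a mean FPKM of at least 1 were named. Other pathway genes, Fbxl14, Xist and Col1a1 were named after their values were seen. Promoters came from RefSeq. Knockout cartilage and cultured cells were not analysed here.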

Additional observations from a re-analysis of the deposited data

How the results depend on the processing

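Over 9 alternatives with all 6 libraries, 18 to 28 members were called lower and 0 higher, and the lowest count came from the filter at a mean FPKM of 1, which tested fewer genes. Leaving out 1 library gave 22 to 26 members lower and 0 to 2 higher, with 2 without 2-month replicate 2. Other pathway genes called higher numbered 12 with DESeq2, 2 under the filter at 1 FPKM and 3 to 12 without 1 library, against 7. In TPM the summed log2 ratios were −3.15 for ligands, −3.35 for Frizzled receptors, −2.13 for co-receptors and −2.03 for Kremen receptors, against −2.71, −2.91, −1.70 and −1.59 in FPKM, because the aged libraries have larger FPKM totals. The same scaling enlarges the fall of the secreted antagonists, whose value in TPM is not given here. Of 482 comparisons of single members with an alternative, 433 kept direction and side of the threshold, 41 lost the call, 1 gained it and 7 changed sign. The sign changed for Wnt10b (0.28 with the replicate block, 0.30 with limma on log2(FPKM + 0.1) with or without a filter, 0.067 with log2(FPKM + 1), 1.18 without 2-month replicate 2 and 0.04 without 18-month replicate 3, over a range of −0.61 to 1.18 without 1 library), for Fzd5 (−0.54 to 0.05 without 1 library, 0.05 without 2-month replicate 2) and, among 23 other named pathway genes, for Pygo2 (−0.008 at a mean FPKM of at least 1). The losses were mainly those of Fzd10, Wnt2b, Wnt5a and Wnt7b, and the cause was not tested. Ctbp1 was at 0.99 at a mean FPKM of at least 1. Over all genes the share of higher calls was 41.2%, but 50.6% with limma on log2(FPKM + 0.1), 57.8% with log2(FPKM + 1) and 52.2% without 2-month replicate 2.

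With the replicate number as a block, 23 members were called lower and 0 higher, and 6032 genes against 7401 were called in all. The labels give same-numbered libraries only a shared number, and their deviations from the group means correlated at 0.03, 0.04 and −0.02. With 3 libraries per age these values cannot exclude a shared batch. The block was used as an alternative and not in the main test.

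Depth was similar in all libraries and limits the members at a few counts. With 3 libraries per age, 1 tissue and no label for separate animals, the tests cannot separate age from other differences between the groups.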

Other observations

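Members differed among the young libraries. As a share of all counts (CPM), 2-month replicate 2 was at 0.297 times the mean of replicates 1 and 3 for Wnt16, 0.383 for Fzd9 and 0.474 for Frzb. It was at 2.11 times that mean for Fzd5 and Sfrp1, 2.27 for Wnt4, 3.34 for Wnt5a and 6.11 for Wnt10b. In the same library osteoclast markers took 0.409% of the counts, against 0.00660% and 0.0798% in the other young libraries, and neutrophil markers 0.563% against 0.00174% and 0.0268%. The part of these cells in the spread was not tested.

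Rnf43, the homolog of the receptor ligase gene Znrf3, had 0.0356, 0.192 and 0.0153 FPKM at 2 months and 0.491, 0.473 and 0.509 FPKM at 18 months. Its log2 fold change of 2.56 did not pass the test (edgeR adjusted p = 0.0523), while Znrf3 was called lower at −1.89.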
